A study of Arabidopsis thaliana with 12 samples.

Results

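The genes described here are 9 Arabidopsis loci that make or break down the protective solutes raffinose and proline. They were chosen by locus and not by a cut on measured values, though earlier results of these data were known. They are the galactinol synthases GolS1 to GolS4, the raffinose synthase RS5, the proline-making enzymes P5CS1 and P5CS2, and the proline dehydrogenases ERD5 and ProDH2. All 9 were found among the 32627 loci on the arrays. Transcript levels were read on 12 one-colour arrays from whole seedlings of accession Col-0, 10 days old, grown on agar plates with salts and sucrose at 22 C. The seedlings were wild type, the T-DNA insertion line gem1, or a line in which the viral 35S promoter drives GEM, a GRAM domain protein known from epidermal patterning. Each genotype was taken untreated and after abscisic acid (ABA, 100 uM for 2 hours), the plant hormone of drought, which makes 6 groups of 2 biological replicates. No mock-treated group is named in the labels, so the effects of handling, of elapsed time and of ABA cannot be told apart. Each altered genotype is a line of its own, and nothing in the labels says whether more than 1 independent line was used.

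Galactinol synthase joins a galactose unit to myo-inositol, and raffinose synthase then passes that unit on to sucrose, which gives raffinose. Both sugars accumulate in plants under drought, salt, heat or cold and protect cells as solutes and as scavengers of radicals. Proline is made from glutamate by P5CS and a reductase, and is broken down again in mitochondria, first by proline dehydrogenase. Plants under water deficit are known to accumulate proline through more P5CS1 and less proline dehydrogenase.

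Values are log2 expression values that the authors made with RMA, and they ran from 6.99 to 15.95 over all arrays. Between 11.4% and 11.7% of the loci on an array read over 15, close to the ceiling of the scale. Array medians lay between 12.16 and 12.22, and the files used carried no flags for background or saturation. The 3 markers of photosynthetic shoot averaged 13.68 to 14.35 on the 12 arrays and the 3 root markers 14.45 to 15.04, so both tissues of the whole-seedling label were read. The shoot markers were uneven, with RBCS1A at 15.81 to 15.90, LHCB2.1 at 14.56 to 15.20 and LHCB1.1 at 10.62 to 12.16. The ABA marker genes RD29B and RAB18 rose by 2.94 and 2.34 on the log2 scale after ABA over the 3 genotypes (limma adjusted p = 0.000177 and 0.000416), and the third marker, RD29A, differed by 0.20 from an untreated median of 15.67 (adjusted p = 0.16).

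GEM itself has 2 transcript features on the array. The first read 15.73 to 15.81 in the 4 overexpressor arrays against 14.13 to 14.48 in wild type, and 14.38 to 14.61 in the 4 arrays labelled gem1. The second read 9.32 to 9.65 in wild type, 11.16 to 11.62 in gem1 and 9.38 to 11.98 in the overexpressor. The arrays labelled gem1 were thus not lower than wild type in either feature. The place of the insertion with respect to the probes is not stated in the labels, and every difference given below for gem1 is a difference of the line labelled so.

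The replicate numbers 1 and 2 of the labels mark 2 sets of arrays that stood apart in all 6 groups. In untreated seedlings 40.7% of all loci differed between the sets, and 29.2% did after ABA (limma, adjusted p under 0.05, genotype as a term). Here and below, tests by set take their spread from the 3 genotypes within a set. Only a single set carries each replicate number, so these tests do not measure spread between sets. What the number stands for beyond a biological replicate is not given in the labels, so values are given by replicate number throughout, and results are given within each set where the sets differ.

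The galactinol synthases, which make the galactinol that raffinose is built from, had the largest ABA responses of the set as read. With the 6 ABA arrays set against the 6 untreated arrays and averaged over genotypes, 4 of the 9 genes were called, all of them galactinol synthases and all higher. Over all loci 5.6% were called higher and 5.2% lower, 10.8% in all. The median response was 0.49 on the log2 scale over the 9 genes and -0.03 over all loci. RS5 and P5CS1 missed the threshold in this fit and passed it with the replicate number as a block. In that fit 6 of 9 were called higher against 9.27% of all loci (22.2% in either direction). The untreated means of RS5 and P5CS1 each lay 0.63 below the highest value on any array, which bounds the rise that could be read.

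GolS2 (AT1G56600), known as a drought- and salt-induced galactinol synthase, lies on chromosome 1 from 21207537 to 21209596 on the forward strand. Coordinates here and below follow the annotation of the array, and its genome build is not stated there. It read 10.29 and 7.87 in untreated wild type (replicates 1 and 2 in turn, as in all lists below), 10.55 and 7.89 in untreated gem1, and 9.87 and 7.80 in the untreated overexpressor. After ABA it read 13.67 and 14.00 in wild type, 13.53 and 13.84 in gem1, and 13.82 and 13.78 in the overexpressor. Every ABA array was above every untreated array, by at least 2.98, and the untreated arrays of replicate 1 were all higher than those of replicate 2. The averaged response was 4.73 ± 0.62 on the log2 scale (SE, 6 against 6 arrays), or 26.5-fold on the RMA scale, with a limma adjusted p of 0.00309 (0.00069 with the replicate block). It was the largest response of the 9 genes in each genotype. The untreated arrays of replicate 2, at 7.80 to 7.89, were among the dimmest readings (4.08% to 5.59% of loci on an array read under 8) and were not shown to lie above background, so the fold and every value that uses them are as read.

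GolS4 (AT1G60470, chromosome 1, 22278975 to 22280586, reverse strand) is a close relative of the other galactinol synthases. Untreated seedlings read 13.36 and 11.46 in wild type, 12.61 and 10.48 in gem1, and 13.20 and 10.51 in the overexpressor. With ABA the values were 14.83 and 13.86, 15.24 and 14.34, and 15.07 and 13.88 in the same order. ABA and untreated arrays did not overlap, and replicate 1 was higher than replicate 2 in all 6 groups. The response averaged 2.60 ± 0.64 (SE), a 6.06-fold rise, with a limma adjusted p of 0.0404 (0.000507 with the replicate block).

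GolS3 (AT1G09350, chromosome 1, 3019819 to 3021441, forward strand) is known as the cold-induced galactinol synthase. In untreated seedlings it read 10.90 and 10.04 in wild type, 10.25 and 9.99 in gem1, and 9.93 and 9.36 in the overexpressor. After ABA it read 11.28 and 11.87, 11.54 and 12.42, and 11.06 and 12.34. Replicate 1 was the higher in every untreated group and the lower in every ABA group, and the treatments were separated by a gap of 0.16 between the highest untreated and the lowest ABA array. The averaged rise was 1.67 ± 0.29 (SE), or 3.19-fold (limma adjusted p = 0.0111).

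GolS1 (AT2G47180, chromosome 2, 19368798 to 19370441, reverse strand), known for induction by drought, salt and heat, already read 14.89 and 14.41 in untreated wild type, 14.47 and 13.89 in untreated gem1, and 14.68 and 13.76 in the untreated overexpressor. ABA arrays read 15.49 and 15.07 in wild type, 15.57 and 15.06 in gem1, and 15.53 and 15.03 in the overexpressor. All ABA arrays lay above all untreated arrays by at least 0.14, and replicate 1 was higher in every group. GolS1 rose by 0.94 ± 0.22 (SE), or 1.92-fold, with a limma adjusted p of 0.0332 (0.0002 with the replicate block). Its untreated mean lay 1.61 below the highest value on any array, which bounds the rise that could be read.

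Without the block, the calls of GolS1 and GolS4 lay close to the threshold. They held when any of the 3 untreated arrays of replicate 1 was left out and were lost in the other 9 of 12 fits that left out an array, with limma adjusted p up to 0.0938 for GolS1 and 0.109 for GolS4. GolS2 and GolS3 were called in all 12 such fits, and with the block all 4 genes were called in all 12. Whether probes separate the 4 galactinol synthases from each other was not tested, since probe sequences were not used here. The values by group are shown in the plot of the 9 genes on the 12 arrays.

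**Figure D1:**
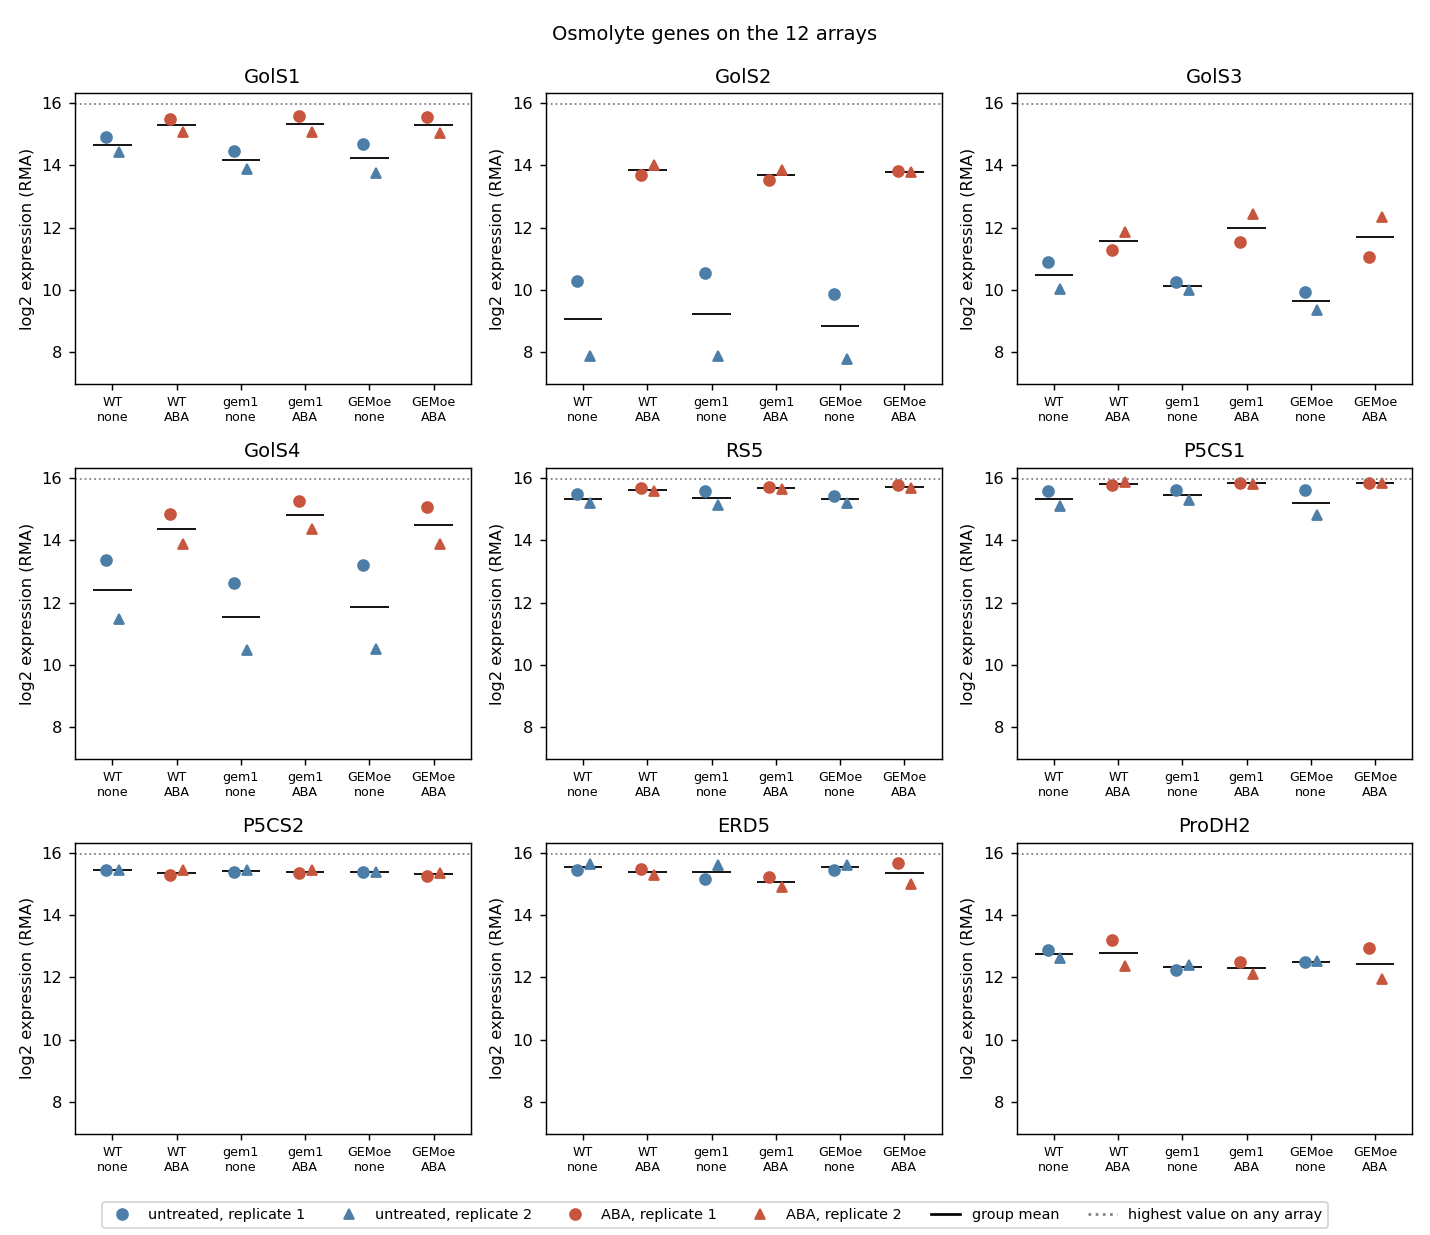
Log2 expression (RMA) of the 9 genes on the y axis, by genotype and treatment on the x axis (WT wild type, GEMoe GEM overexpressor); circles are replicate 1, triangles replicate 2, horizontal bars group means of 2 arrays, and the dotted line the highest value on any array, 15.95. GolS2 lies between 7.80 and 10.55 untreated and between 13.53 and 14.00 with ABA, whereas RS5, P5CS1, P5CS2 and ERD5 lie near the dotted line in every group.

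RS5 (AT5G40390, chromosome 5, 16161515 to 16165357, forward strand) encodes the raffinose synthase that uses galactinol, and the array annotation names it SIP1. Untreated seedlings read 15.48 and 15.18 in wild type, 15.58 and 15.12 in gem1, and 15.41 and 15.20 in the overexpressor. After ABA the values were 15.66 and 15.56, 15.69 and 15.64, and 15.75 and 15.67. All 6 matched pairs of the same genotype and replicate number were higher with ABA, by 0.11 to 0.53, but the highest untreated array (gem1, replicate 1) lay 0.02 above the lowest ABA array. The averaged difference was 0.33 ± 0.10 (SE, 95% interval 0.10 to 0.57) with a limma adjusted p of 0.0792, and 0.0113 with the replicate block. The untreated mean lay 0.63 below the highest value on any array.

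P5CS1 (AT2G39800, chromosome 2, 16598164 to 16603319, reverse strand) is the stress-induced enzyme that commits glutamate to proline. It read 15.57 and 15.08 in untreated wild type, 15.61 and 15.29 in gem1, and 15.59 and 14.81 in the overexpressor. ABA arrays read 15.76 and 15.85, 15.83 and 15.81, and 15.83 and 15.83. The ABA arrays stood above all untreated arrays, the highest of them 0.11 below the highest value on any array, and the spread between replicate numbers seen without treatment was smaller among them. P5CS1 differed by 0.49 ± 0.15 (SE, 95% interval 0.14 to 0.84), with a limma adjusted p of 0.0867 (0.0262 with the replicate block, and called in 6 of 12 fits that also left out an array). Of all loci, 6.14% had their 6 ABA arrays above their 6 untreated arrays, as did 5 of the 9 genes, namely the 4 galactinol synthases and P5CS1.

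P5CS2 (AT3G55610, chromosome 3, 20624970 to 20629093, reverse strand) is the paralog known for housekeeping proline synthesis and embryo development. It read between 15.36 and 15.45 over the 6 untreated arrays (median 15.41) and between 15.25 and 15.43 over the 6 ABA arrays (median 15.36). The treatments overlapped, and all 6 matched pairs were lower with ABA, with differences of -0.16 to -0.002. The untreated mean lay 0.55 below the highest value on any array. The averaged difference of -0.06 ± 0.05 (SE, 95% interval -0.18 to 0.07) did not pass the test (limma adjusted p = 0.71). A second transcript feature of the gene, which starts at 20624020, differed by 0.12 (adjusted p = 0.464 when every feature was tested), with 5 of 6 pairs higher, so the features did not share a direction.

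ERD5 (AT3G30775, chromosome 3, 12448636 to 12451248, reverse strand), also known as ProDH1, is the main proline dehydrogenase and was first found as an early dehydration gene. Without ABA it read 15.46 and 15.62 in wild type, 15.16 and 15.61 in gem1, and 15.45 and 15.60 in the overexpressor. With ABA it read 15.48 and 15.27, 15.23 and 14.89, and 15.66 and 15.01. Replicate 2 was the higher array in each untreated group and the lower in each ABA group. Averaged over genotypes the difference was -0.23 ± 0.14 (SE, 95% interval -0.56 to 0.10; limma adjusted p = 0.454).

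ProDH2 (AT5G38710, chromosome 5, 15501245 to 15504109, forward strand) is the second proline dehydrogenase, and the files carry no symbol for it. Untreated values were 12.87 and 12.63 in wild type, 12.25 and 12.40 in gem1, and 12.48 and 12.54 in the overexpressor. ABA values were 13.20 and 12.36, 12.49 and 12.12, and 12.94 and 11.94. The treatments overlapped, replicate 1 was the higher array of every ABA group, and the averaged difference of -0.02 ± 0.21 (SE, 95% interval -0.51 to 0.47) did not pass the test.

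Within single genotypes, where 2 arrays were set against 2, none of the 9 genes passed the threshold without the block, against 1.37% of all loci in wild type, 1.46% in gem1 and 1.55% in the overexpressor. At an unadjusted limma p under 0.05 there were 1, 4 and 6 of the 9 genes in these genotypes, beside 3905, 3407 and 3847 of the 32627 loci. With the replicate number as a block, GolS1, GolS2 and GolS4 were called higher in each genotype, against 3.33%, 3.72% and 3.5% of all loci. GolS2 responded by 4.75 in wild type, 4.47 in gem1 and 4.96 in the overexpressor, with limma adjusted p of 0.0955, 0.113 and 0.0808 without the block and 0.0223, 0.0273 and 0.0191 with it. GolS4 responded by 1.93, 3.25 and 2.62 in the same order, with limma adjusted p of 0.0464, 0.00763 and 0.017 with the block. GolS1 responded by 0.63, 1.14 and 1.06, with blocked limma adjusted p of 0.0335, 0.00392 and 0.00502. GolS3 was higher by 2.15-fold, 3.63-fold and 4.15-fold and missed the threshold in each genotype with and without the block. With the block and an array left out, GolS1 and GolS4 remained called in wild type in 2 of 12 fits and GolS2 in 8 of 12. In gem1 and the overexpressor these genes were called in 9 to 11 of 12. The 3 responses use separate control arrays.

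The size of the GolS2 response differed between these replicate sets, by a test whose spread is that among genotypes within a set. GolS2 rose by 3.44 in replicate set 1 and by 6.02 in set 2, and the difference of 2.58 ± 0.21 (SE) passed the test (limma adjusted p = 0.00131, against 2.34% of all loci called). Its untreated level was 2.38 lower in set 2 (adjusted p = 6.53e-05), and with ABA the sets differed by 0.20 (adjusted p = 0.34). The larger fold change in set 2 thus went with a lower starting level, down to 0.81 above the lowest value on any array and not shown to lie above background, and not with a called difference in the level after ABA.

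GolS4 was also lower in untreated set 2, by 2.24 (limma adjusted p = 0.0015), but kept a called difference after ABA, where set 2 was lower by 1.02 (adjusted p = 0.0348). Its response was 1.99 in set 1 and 3.21 in set 2, a difference of 1.23 ± 0.42 that did not pass (adjusted p = 0.243). GolS3 responded by 0.93 in set 1 and 2.41 in set 2, and here the level with ABA was the higher in set 2, by 0.92 (adjusted p = 0.0278). The difference of 1.48 ± 0.34 missed the threshold (adjusted p = 0.0761). GolS1 responded by 0.85 in set 1 and 1.03 in set 2, and the difference of 0.19 ± 0.19 did not pass (adjusted p = 0.882).

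For RS5 the response was 0.21 in set 1 and 0.46 in set 2, and for P5CS1 it was 0.22 and 0.77. Both genes were called lower in set 2 without treatment, by 0.32 and 0.53 (limma adjusted p = 0.00818 and 0.0059), and neither differed past the threshold after ABA. P5CS1 and RS5 were called in set 2 (adjusted p = 0.000713 and 0.00144) and not in set 1 (adjusted p = 0.222 and 0.0748), but the tests of the difference between sets gave adjusted p of 0.102 and 0.325. In all, 4 of the 9 genes were called in set 1, against 14.1% of all loci, and 7 in set 2, against 20.8%.

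For the proline dehydrogenases, no difference in response between the sets passed the test. ERD5 fell in set 2 by 0.55 ± 0.10 (SE; limma adjusted p = 0.00462), and in set 1 the difference was 0.10 ± 0.10 (adjusted p = 0.667). ProDH2 differed by 0.34 ± 0.12 in set 1 and by -0.39 ± 0.12 in set 2 (adjusted p = 0.111 and 0.0579). For both genes all 3 pairs of set 1 were higher with ABA and all 3 pairs of set 2 were lower. The differences between sets were -0.66 ± 0.14 for ERD5 (adjusted p = 0.0584) and -0.73 ± 0.17 for ProDH2 (adjusted p = 0.0802). With ABA, ERD5 and ProDH2 were called lower in set 2 than in set 1, by 0.40 and 0.74 (adjusted p = 0.024 and 0.00739).

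Markers of seed moved with the replicate sets too, in every genotype only with ABA. With ABA, all 3 seed markers were higher in set 2 than in set 1 in each genotype, with OLEO2 at 8.62 to 8.86 in set 1 and 9.57 to 11.68 in set 2, OLEO1 at 9.98 to 10.61 and 11.85 to 13.62, and CRA1 at 11.26 to 13.02 and 13.67 to 15.56. Their summed level was 11.91 to 13.33 (log2) in set 1 and 14.09 to 15.97 in set 2 with ABA. Without ABA it was 11.14 to 13.94 and 13.46 to 14.35. In untreated gem1 OLEO1 read 11.16 in set 1 and 11.04 in set 2, and CRA1 13.64 and 13.71. In untreated wild type and the untreated overexpressor OLEO1 and CRA1 were higher in set 2. The part of these seed markers in the set differences of the 9 genes was not tested.

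**Figure D2:**
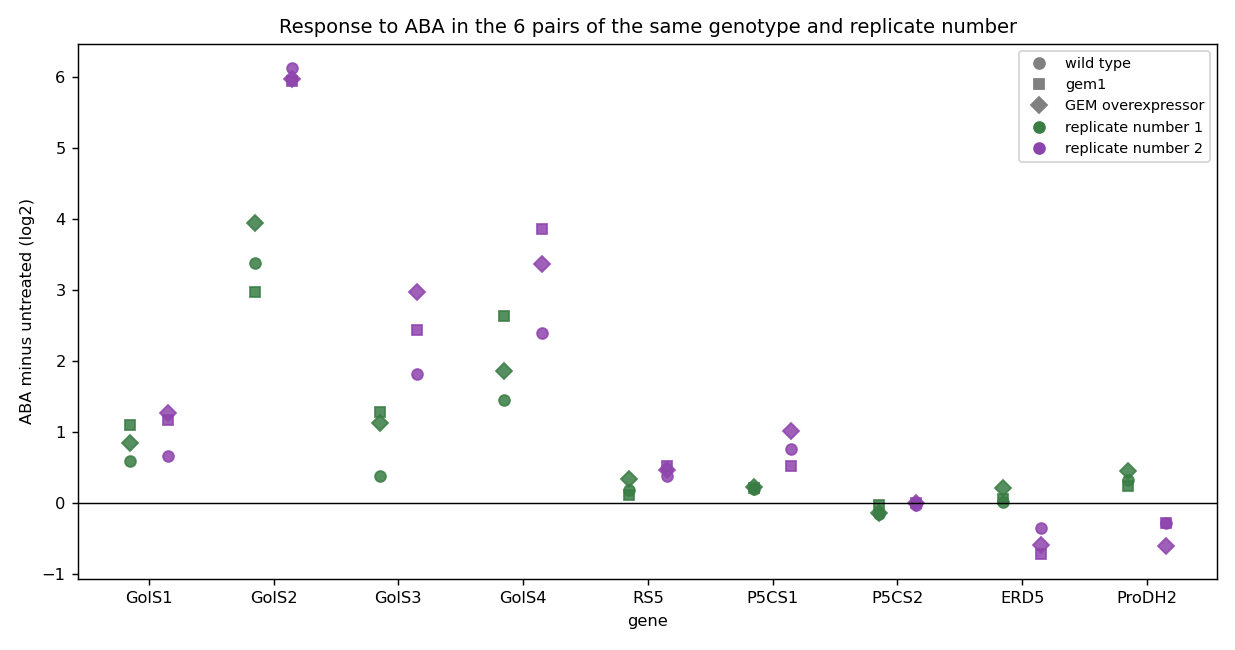
ABA minus untreated log2 value (y axis) for each of the 9 genes (x axis) in the 6 pairs of the same genotype and replicate number; shape marks the genotype and colour the replicate number. All 6 pairs are above 0 for GolS1 to GolS4, RS5 and P5CS1, the GolS2 pairs form clusters at 2.98 to 3.94 and 5.95 to 6.13 by replicate number, and ERD5 and ProDH2 lie above 0 for replicate number 1 and below 0 for number 2.

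Genotype had no called effect on the 9 genes. None passed the threshold in gem1 or in the overexpressor against wild type, untreated, with ABA or averaged over treatments, by limma with or without the replicate block. Over all loci there was likewise no call (0%) in these contrasts, except 1 locus (0.00306%) in the overexpressor averaged over treatments. At an unadjusted limma p under 0.05 none of the 9 genes passed in any of the 6 contrasts without the block, while 161 to 284 loci did. These are fewer of the 32627 loci than such a limit passes when no locus differs. The spread without the block holds the difference between the replicate sets, so the lack of passing genes there says little. With the block GolS1 passed that unadjusted limit, beside 632 to 748 loci, in the contrasts without ABA (-0.47 in gem1 and -0.43 in the overexpressor) and averaged over treatments (-0.22 and -0.21), and none of the 9 did in those with ABA.

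The largest averaged difference in gem1 was that of ProDH2, at -0.45 ± 0.26 (SE, 95% interval -1.05 to 0.15), and its value was lower in gem1 in 4 of 4 matched pairs, by 0.23 to 0.72. ERD5 was also lower in gem1 in 4 of 4 pairs, with an averaged difference of -0.23 ± 0.17 (95% interval -0.64 to 0.17). The other 7 genes lay between -0.22 and 0.07. In the overexpressor the averages ran from -0.35 ± 0.36 for GolS3 (95% interval -1.19 to 0.49) to 0.04 for RS5. ProDH2 was lower in 4 of 4 pairs, with an average of -0.29 (95% interval -0.89 to 0.31). P5CS2 was also lower in 4 of 4 pairs, with differences of -0.09 to -0.03, and its other feature in 2 of 4. The share of all loci with such agreement between pairs is not given here. The gem1 and overexpressor contrasts share the wild-type arrays. Without the block, as for all intervals above, the gem1 intervals were wide, from -1.77 to 1.75 for GolS2 and from -2.03 to 1.61 for GolS4. They hold differences of several-fold in either direction. With the block the gem1 interval ran from -1.41 to 1.39 for GolS2, -0.92 to 0.51 for GolS4 and -0.92 to 0.02 for ProDH2.

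**Figure D3:**
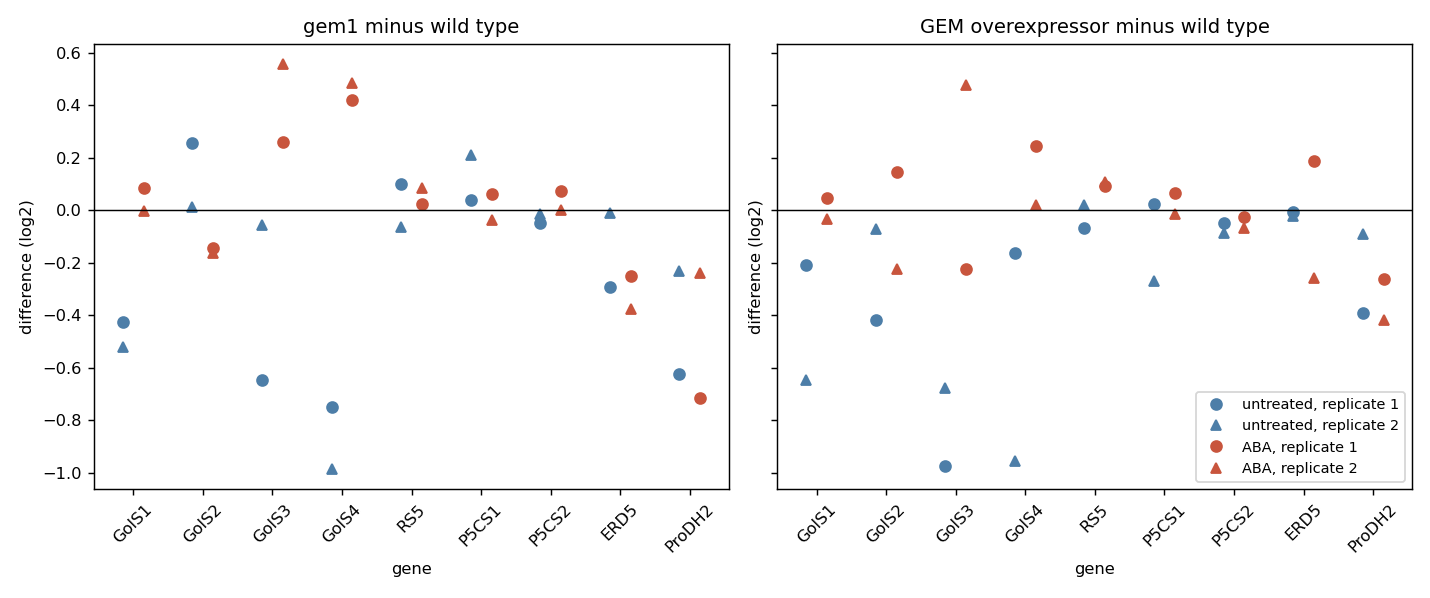
Log2 difference from wild type (y axis) in gem1 (left) and in the GEM overexpressor (right) for each of the 9 genes (x axis), in 4 pairs of the same treatment and replicate number; blue is untreated, red ABA, circles replicate 1 and triangles replicate 2. ProDH2 lies below 0 in all 4 pairs of both panels. ERD5 does so for gem1 and P5CS2, close to 0, for the overexpressor. GolS4 in gem1 runs from -0.98 untreated to 0.485 with ABA.

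Differences in the ABA response between genotypes were not called for any of the 9 genes or for any locus (unadjusted limma p under 0.05 for 208 loci in gem1 and 179 in the overexpressor, and for none of the 9 genes without the block). With the block GolS1 passed that unadjusted limit in both lines (differences of 0.51 and 0.43, with 886 and 662 loci passing), with limma adjusted p of 0.986 and 1. GolS4 had the largest difference in gem1, where its response exceeded that of wild type by 1.32. The SE of this difference was 1.56 without the block (95% interval -2.32 to 4.96). With the block the SE was 0.61 (95% interval -0.11 to 2.75), and both intervals include no difference. In both replicate sets GolS4 was lower in untreated gem1 than in untreated wild type, by 0.75 and 0.98, and higher with ABA, by 0.42 and 0.485. In the overexpressor the largest difference was that of GolS3, at 0.95 ± 0.72 (95% interval -0.73 to 2.63). With the block this interval ran from -0.74 to 2.65.

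Other genes of the same pathways were read from 3 lists. Over all loci 5.6% were called higher and 5.2% lower in the averaged response, and 22.2% in either direction with the replicate block. With so few genes in a list, its count of calls is not read as a result about the list. Of the genes that supply the substrates of galactinol synthase, 9 of 10 were analysed, of which 2 rose and 1 fell with ABA averaged over genotypes, with a list median of -0.06 against -0.03 over all loci. MIPS2, an enzyme of myo-inositol synthesis, read 13.70 to 14.20 untreated (median 14.06) and 15.25 to 15.47 with ABA (median 15.33), with no overlap. It rose by 1.33 ± 0.08 (SE; limma adjusted p = 0.000149) and was called in each genotype alone (adjusted p = 0.00675 in wild type, 0.0104 in gem1 and 0.00704 in the overexpressor). UGE2, which converts UDP-glucose to UDP-galactose, read 12.95 to 13.61 untreated (median 13.26) and 14.13 to 14.47 with ABA (median 14.40). UGE2 rose by 1.08 ± 0.12 (adjusted p = 0.00152) and was called in gem1 (adjusted p = 0.037) and the overexpressor (adjusted p = 0.0456) but not in wild type (adjusted p = 0.109, and 0.0332 with the replicate block), and whether the genotypes differed in it was not tested. The paralog MIPS3 fell by 0.38 ± 0.08 (adjusted p = 0.0248), and MIPS1 differed by 0.005 ± 0.056 from an untreated median of 15.51. With the replicate block VTC4, an inositol phosphatase, and UGE3 were also called lower.

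Among the other genes of the raffinose family, 13 of 13 were analysed, with a list median of 0.05. Of these, 2 rose and none fell, against 5.6% and 5.2% of all loci. Both are named after seed imbibition proteins, a family related to raffinose synthases. SIP1 at AT1G55740, a locus other than that of RS5, rose by 0.96 ± 0.21 (SE; limma adjusted p = 0.0275), from 12.65 to 13.74 untreated (median 13.15) to 13.99 to 14.30 with ABA (median 14.09). SIP2, known as an alkaline alpha-galactosidase that acts on raffinose, rose by 0.45 ± 0.06 (adjusted p = 0.0035), with values of 15.20 to 15.51 untreated and 15.73 to 15.83 with ABA. The further galactinol synthase genes GolS5 to GolS10 were not called, with differences of -0.14 to 0.16. GolS7, which is separated from GolS4 by 2 genes in the gene table used, read 7.77 to 8.03 over all 12 arrays. With the replicate block the neighbouring alpha-galactosidase genes AGAL1 and AGAL2 were called in opposite directions, by 0.22 and -0.24 (adjusted p = 0.0486 and 0.021).

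Of the other proline genes 9 of 11 were analysed, with a list median of 0.08. Among them 1 rose and 1 fell, against 5.6% and 5.2% of all loci. The bZIP transcription factor gene bZIP44, of the group known to act on the proline dehydrogenase promoter, read 12.28 to 12.72 untreated and 13.05 to 13.46 with ABA and rose by 0.66 ± 0.11 (SE; limma adjusted p = 0.00958). The proline transporter gene ProT1 fell by 0.24 ± 0.06 (adjusted p = 0.0485), from an untreated median of 14.74 to 14.49. P5CR, the reductase that completes proline synthesis, differed by -0.09 ± 0.07 (adjusted p = 0.557). P5CDH (ALDH12A1), the second enzyme of proline breakdown, was called with the replicate block only, at 0.20 ± 0.05 (adjusted p = 0.0342). In single genotypes the block brought SIP2 and bZIP44 past the threshold in each, MIPS3 in wild type and AGAL2 in gem1. bZIP1, bZIP11 and UGE5 were not analysed here.

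**Figure D4:**
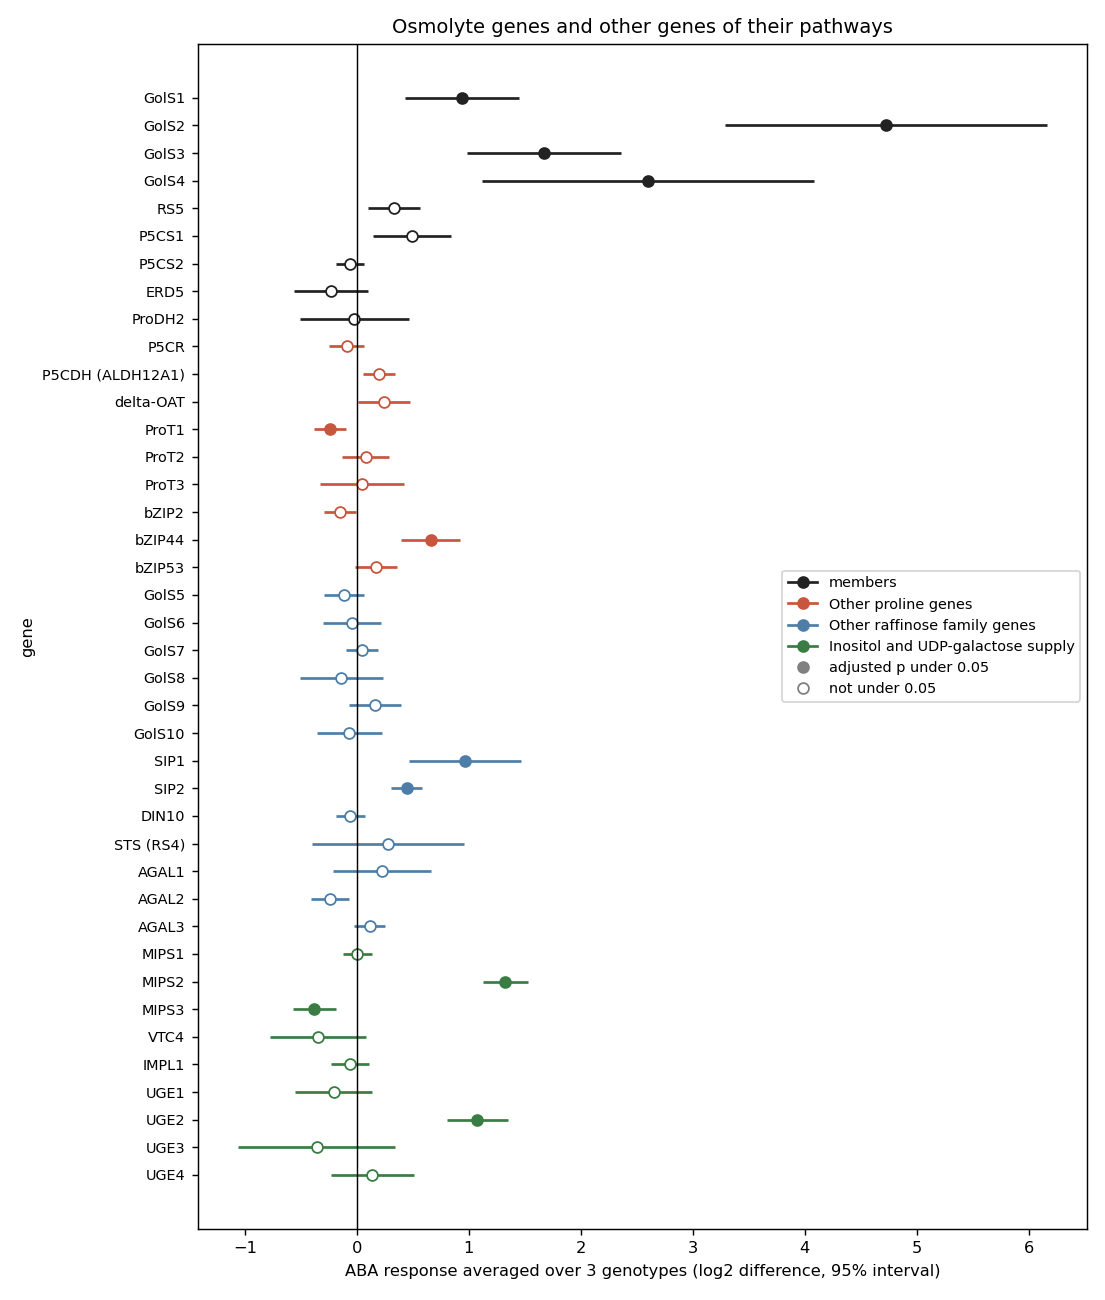
Response to ABA averaged over the 3 genotypes (x axis, log2 difference, points with 95% intervals from limma) for the 9 genes and the 31 analysed genes of the 3 lists (y axis); colours mark the lists, filled points have an adjusted p under 0.05. GolS2 at 4.73 and GolS4 at 2.60 lie farthest to the right, MIPS2 at 1.33 and UGE2 at 1.08 follow among the listed genes, and the other proline genes lie between -0.24 and 0.66.

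Marker genes of tissues moved with ABA in part. Of the 3 root markers, the phosphate transporter gene PHT1;1 fell by 0.57 and the root hair gene COBL9 by 0.78 (limma adjusted p = 0.00529 and 0.0124), and PYK10 differed by 0.02 near the top of the scale. The summed level of the 3 root markers ran from 16.82 to 16.93 (log2) over the untreated arrays and from 16.59 to 16.69 over the ABA arrays. None of the 3 shoot and none of the 3 seed markers was called over the 3 genotypes. In whole seedlings, fewer cells of a type and less RNA per cell cannot be told apart, and the part of these markers in the responses of the 9 genes was not tested.

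Across the 12 arrays the 4 galactinol synthases correlated with each other at Pearson's r of 0.74 (GolS1 and GolS3) to 0.98 (GolS1 and GolS4). GolS2 correlated with RS5 at 0.93 and with P5CS1 at 0.91, and GolS3 with them at 0.76 and 0.82. ERD5 and ProDH2 correlated with each other at 0.70, and with GolS3 at -0.73 and -0.28. All arrays share the treatment and the replicate sets, so these values describe the 12 arrays and carry no test.

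The named loci whose values were most like each member over the 12 arrays, by Pearson's r, were as follows. GolS2 was most like ABI1, a phosphatase gene of the ABA pathway, at 0.998, followed by MYB49 and ABCG16. BGLU7 (0.988), RNS1 and INT2, an inositol transporter gene, led for GolS1. For GolS3 they were GATL2 (0.957), PUT1 and NHX3. CYP98A3 (0.989), ABCG29 and BGLU25 were most like GolS4. RS5 was followed by AtCDC48B (0.984), LAC5 and HXK2, a hexokinase gene. P5CS1 was most like NF-YB2 (0.975), COR15B, a cold- and ABA-induced gene, and ZIF1. The values were lower for the remaining genes. The loci were MIR169k (0.910), APA1 and APE1 for P5CS2, CML30 (0.923), DIN10 and TCH3 for ERD5, and RLP53 (0.898), ETC1 and JAZ6 for ProDH2. DIN10 and TCH3 are known as genes induced by darkness and by touch.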

How the data were processed

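The deposited log2 expression values, 1 per transcript feature and array, come from RMA, as the submitters' processing notes name it without a version, and were used as they stand. The log2 scale was taken from the values. RMA equalises array distributions, which hides any change in total RNA. Values near the top of the scale leave little room for a rise to be read. A locus with more than 1 feature (3602 of 32627) was read by the feature with the highest mean over 12 arrays. No genome build is stated for the array, and assembly TAIR10.1 served for names and neighbours only. No sequence was used.

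limma 3.58.1 in R 4.3.3 (data.table in version 1.17.8, jsonlite 2.0.0) fitted the 6 group means to all 12 arrays, with 12 contrasts, two-sided tests, Benjamini-Hochberg adjustment over all loci and a threshold of 0.05. The fit had 6 residual degrees of freedom. The number of arrays limits the precision. The median standard error of the wild-type response was 0.21 on the log2 scale, and 0.14 with the replicate block. Every adjusted p given is from limma. Deviations of same-numbered replicates from their group means correlated at 0.44 to 0.88 over the 15 pairs of groups (median 0.71), so the numbers of the labels were taken to pair the samples, and blocked values are given where they change a call. Responses within replicate sets came from a fit of treatment by replicate number with genotype as a term, added after seeing the data. Its spread is that among the 3 genotypes within a set, and not that between sets.

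The 9 genes, the lists and the markers were chosen with earlier results of these data known. The text names all 9 genes, each list gene past the threshold in an ABA response (otherwise the 2 with the largest response), the 3 loci with a symbol most correlated with each of the 9, and GEM. Other list genes, such as P5CR, MIPS1, GolS7, the pairs called only with the block and the markers were named after their values were seen. Alternatives were the replicate block, a variance trend, array weights, no dim loci (the lowest 30%), a median shift, quantile normalization again, every feature, a 2-fold minimum, the whole-series table and the omission of each array, also with the block. The fit was tested on simulated data with independent spread on each array and no difference between replicate sets. Unlike the real arrays, these data cannot show how the fits with and without the block behave when sets differ. The plots used matplotlib 3.10.9 (Python 3.11.15).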

Additional observations from a re-analysis of the deposited data

Results flagged for a closer look

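The response of GolS2 to ABA differed between the replicate sets, and those of ERD5 and ProDH2 had opposite signs in them. For GolS2 the response in set 2 exceeded that in set 1 by 2.58 on the log2 scale, and the difference itself passed the test (limma adjusted p = 0.00131). It passed as well when any of the 12 arrays was left out. Those fits too took the 3 genotypes as replicates within a set, so they do not measure spread between sets. The untreated readings of set 2 were not shown to lie above background. For ERD5 the difference was -0.66 and for ProDH2 -0.73, since all 3 pairs of set 1 were higher with ABA and all 3 pairs of set 2 were lower. The tests of these differences missed the threshold (limma adjusted p = 0.0584 and 0.0802). Replicate number moved with these values, and its part in them beyond that was not tested.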

How the results depend on the processing

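The count of called genes in the averaged ABA response was 4, and it was 6 with the replicate block, 2 with array weights, 7 in replicate set 2 alone and, when an array was left out, 2 to 5 without and 5 to 6 with the block. Of all loci, 10.8% were called without the block, 22.2% with it and 20.8% in set 2 alone. The shares of all loci with array weights or with an array left out are not given here. Those counts are therefore not set against a change in calls over all loci. With array weights GolS1 and GolS4 missed the threshold (limma adjusted p = 0.051 and 0.0506). In single genotypes the count went from 0 to 3 in wild type, 3 in gem1 and 3 in the overexpressor with the replicate block. With the block, leaving out an array gave 0 to 3, 0 to 3 and 0 to 4 (values of 1, 2, 3 and 4 among those that moved), and without the block it gave 0 in all such fits. GolS2 and GolS3 were called in the averaged response under each alternative run over both replicate sets. The variance trend brought RS5 past the threshold (adjusted p = 0.039), and a 2-fold minimum dropped GolS1. Directions reversed only for genes with no call over both sets. In set 1 alone ERD5 was at 0.10 and ProDH2 at 0.34. With an array left out, ProDH2 ran from -0.40 to 0.45 in wild type, -0.21 to 0.16 in gem1, -0.57 to 0.43 in the overexpressor and -0.19 to 0.15 on average, P5CS2 in gem1 from -0.056 to 0.022, and ERD5 in the overexpressor from -0.51 to 0.14. With the block as well, the turned values of ProDH2 were -0.052 and -0.25 in wild type, 0.29 in gem1, 0.19 and 0.31 in the overexpressor and 0.00596, 0.066, 0.073, 0.084 and 0.10 on average, and that of ERD5 in the overexpressor was 0.16. The cause of these changes was not tested. The difference between sets passed for GolS3 with the trend or quantile normalization (adjusted p = 0.0419 and 0.0461), for P5CS1 with the trend (0.0231) and for ERD5 with the trend or without dim loci (0.0112 and 0.0431). No genotype contrast gave a call among the 9 genes under any alternative.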
